A study of Homo sapiens with 6 samples.

Results

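Antisense transcripts are RNAs made from the DNA strand opposite to another gene, and by naming convention they carry the name of that gene followed by -AS and a number. The transcripts described here are the rows of the deposited table whose name has this form and whose normalised count, a read count divided by the library's size factor, was at least 10 in at least 3 of 6 libraries. The members were thus selected on their own values, and 196 of the 1203 rows with such a name met the rule, among 58219 rows in all. Of the remaining names, 507 had no read in any library and 500 had reads but stayed below the rule. Just inside it lay NFYC-AS1, whose value in the library that decided its entry was 10.2, and PRRT3-AS1, PAN3-AS1 and IQCH-AS1, each at 10.5. Just outside it lay CCNT2-AS1 and RALY-AS1 at 9.75 and RASAL2-AS1 and DNAJC9-AS1 at 9.59.

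The libraries came from IMR90 cells, diploid fibroblasts of human lung, with the genotype ER-RAS, in the series' design text ER-RASG12V. In such a construct an oncogenic RAS mutant is joined to the hormone-binding end of the oestrogen receptor, so that 4-hydroxytamoxifen (4OHT) switches it on. All cells received 100 nM 4OHT, for 30 h in the 3 libraries that the labels call uncommitted controls and for 72 h in the 3 libraries that they call committed. No library without 4OHT or without the construct was analysed here, so the comparison is between 2 times of the same treatment. Sample titles speak of 1.5 days and 3 days, and the hours used here are those of the treatment protocol and of the table's columns. The labels do not state that the replicates, lettered A to C, were separate cultures. The spread behind each p-value is that between libraries and may be technical. The comparison asks which antisense transcripts differed between the earlier and the later state, and each was set beside the gene it is named after, its sense partner, as a reference only.

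Antisense genes often start close to the start of their partner and are transcribed in the opposite direction from the same promoter region, or they run through the partner's exons or introns. Some are known to raise or lower the expression of the neighbouring gene, some act elsewhere in the cell, for instance by binding microRNAs, and for most no function is known. Fibroblasts in which oncogenic RAS is switched on stop dividing and become senescent after some days, with a broad change in cell cycle, matrix and cytokine genes.

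Each library held between 13221152 and 15703544 reads in genes. The first principal component, with 81.3% of the variance, separated the times, and the second, with 6.99%, set both libraries of letter C apart from the others. Fibroblast genes were abundant (COL1A1 8850 to 48600 and VIM 37300 to 105000 normalised counts), whereas KRT5, SFTPC, SFTPB, CDH5, CD3E and MS4A1, which mark epithelial, endothelial and immune cells, were at 0 in all 6 libraries. Of the other 8 markers of those cells, TEK was at 385 to 914 and the rest did not exceed 12.7 in any library. HRAS, whose counts may include the construct, had means of 37600 at 30 h and 27300 at 72 h. In such bulk libraries fewer cells of a type and less RNA per cell cannot be told apart.

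Between 30 h and 72 h, 27 antisense members rose, 29 fell and 140 did not pass the test. The test was limma on log2(normalised count + 1), with a Benjamini-Hochberg adjusted p under 0.05 over all 13315 genes past the same filter. Members called in either direction made up 28.6%, against 48.6% of all tested genes. Those called higher are to be read against 23.6% of all genes and those called lower against 25.0%. Changes ran from -2.99 to 2.75 on the log2 scale with a median of -0.01, and the median of all tested genes was 0.01. At least 2-fold changes were found for 10 of the members that rose and 12 of those that fell.

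Most members were scarce, and the share called followed the level. The median member had a mean of 32.2 normalised counts, whereas the median of all tested genes was 341. Of the 155 members with a mean under 100, 35 were called (22.6%), against 35.8% of all tested genes at such levels. In the 41 members at 100 or more, 21 were called (51.2%), against 53.5% of all genes at those levels. Among all tested long non-coding genes, a class to which most members themselves belong, 29.8% were called. The 3 values of 72 h all lay above the 3 of 30 h in 40 members (20.4%, against 29.3% of all genes), and all below them in another 40 (20.4%, against 29.9%). The rule let 4 members in through the later time alone (MZF1-AS1, TMEM51-AS1, ZFHX2-AS1 and PSMB8-AS1) and 4 through the earlier time alone (SLC8A1-AS1, ADD3-AS1, ENTPD3-AS1 and SMC5-AS1), so their selection favoured a difference between the times.

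**Figure D1:**
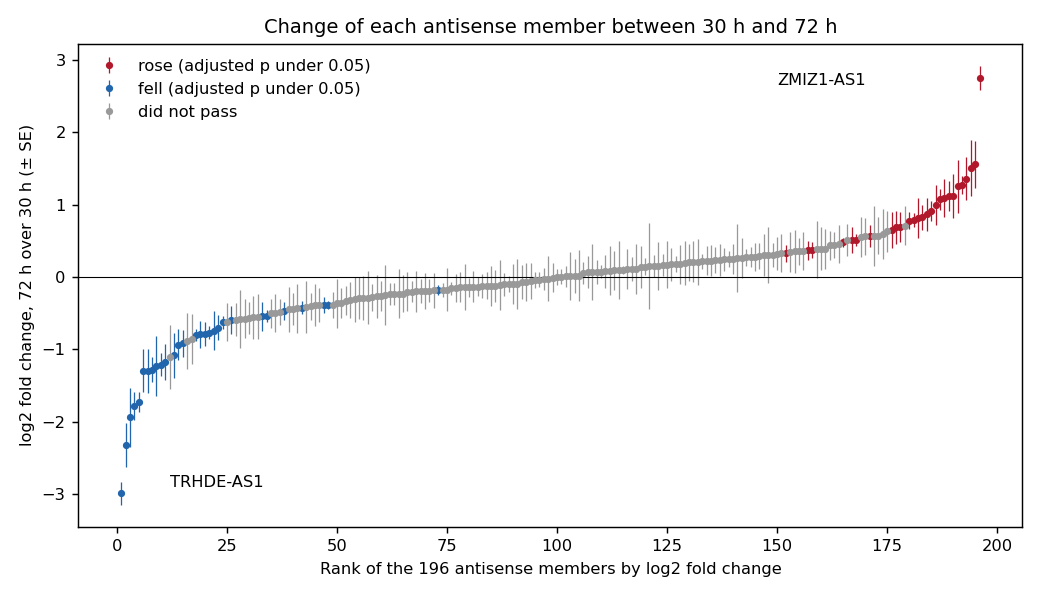
Log2 fold change (72 h over 30 h) of each of the 196 antisense members on the y axis, ranked on the x axis, with bars for the standard error of limma; red points rose, blue points fell and grey points did not pass an adjusted p of 0.05. The values run from -2.99 (TRHDE-AS1) to 2.75 (ZMIZ1-AS1), and most members lie close to 0.

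The largest rise was that of ZMIZ1-AS1 (ENSG00000224596, chr10:78943328-79067895, minus strand, GRCh38), named after ZMIZ1, a transcriptional coactivator of the PIAS-like family. Its normalised counts were 25.3, 34.5 and 39.0 at 30 h and 228, 230.2 and 215 at 72 h. All 3 later values lay far above the earlier ones, and the member rose 6.73-fold (log2 fold change 2.75 ± 0.17 SE, adjusted p = 2.05e-06; limma, Benjamini-Hochberg). ZMIZ1 had 2666, 2567 and 3083 at 30 h and 4075, 3779.8 and 4040.4 at 72 h and rose as well, by less (log2 fold change 0.52 ± 0.07 SE, adjusted p = 0.000303). The genes of this pair do not overlap, with a gap of 1140 bases between them, and no exon base of the member is shared with a gene on the other strand. The RefSeq promoter window of ZMIZ1-AS1, 250 bases before to 50 after its start (chr10:79067399-79067698, minus strand, GRCh38.p14), is shown because this member changed most among the rises. Its capitals mark 2 matches to CCAAT, the second read on the other strand, and 2 to the GC box GGGCGG, the first read on the other strand:
ZMIZ1-AS1: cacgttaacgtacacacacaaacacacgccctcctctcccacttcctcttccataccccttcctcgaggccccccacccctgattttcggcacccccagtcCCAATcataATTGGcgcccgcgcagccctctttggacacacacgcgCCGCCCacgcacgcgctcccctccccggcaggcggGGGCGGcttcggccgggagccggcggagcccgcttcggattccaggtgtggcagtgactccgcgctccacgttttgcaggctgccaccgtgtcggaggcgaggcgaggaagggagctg

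Among the falls, TRHDE-AS1 (ENSG00000236333, chr12:72253508-72274907, minus strand) changed most. TRHDE encodes the enzyme that degrades thyrotropin-releasing hormone outside the cell. TRHDE-AS1 had 350.0, 321 and 264 at 30 h and 41.9, 41.9 and 31.5 at 72 h and fell 7.94-fold (log2 fold change -2.99 ± 0.16 SE, adjusted p = 9.02e-07; limma, Benjamini-Hochberg). The groups lay well apart. TRHDE itself had 3598, 3586 and 3008 at 30 h and 750.1, 795 and 382 at 72 h and fell (log2 fold change -2.47 ± 0.31 SE, adjusted p = 0.00183). The closest starts of both genes lie 157 bases apart and point away from each other, and 9.03% of the exonic length of TRHDE-AS1 (793 bases) is also exon of TRHDE. The promoter window of TRHDE-AS1 (chr12:72273460-72273759, minus strand, GRCh38.p14, RefSeq) is shown as that of the member with the largest fall, with 1 CCAAT match, read on the other strand, and 1 GC box, also on the other strand, in capitals:
TRHDE-AS1: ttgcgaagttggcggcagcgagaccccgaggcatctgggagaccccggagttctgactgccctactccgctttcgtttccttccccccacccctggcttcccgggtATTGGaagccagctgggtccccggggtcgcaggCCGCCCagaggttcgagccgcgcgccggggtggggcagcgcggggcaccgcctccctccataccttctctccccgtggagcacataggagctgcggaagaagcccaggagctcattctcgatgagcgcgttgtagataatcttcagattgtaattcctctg

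A further 3 falls of more than 3-fold by limma went with falls of the partner. GAS6-AS2 starts 101 bases from GAS6, the ligand of the receptor AXL, and shares no exon base with it. It had 63.4, 61.0 and 39.0 at 30 h and 14.3, 6.98 and 9.44 at 72 h and fell 5.00-fold (log2 fold change -2.32 ± 0.30 SE, adjusted p = 0.000207), and GAS6 fell by 1.94 on the log2 scale. SOCS2-AS1 is named after an inhibitor of growth hormone signalling and had 58.5, 67.1 and 78.0 at 30 h and 19.4, 17.4 and 19.9 at 72 h (log2 fold change -1.78 ± 0.19 SE, adjusted p = 6.3e-05), with a fall of 1.88 on the log2 scale in SOCS2. NEXN-AS1 shares exon bases with NEXN, the gene of nexilin, an actin-binding protein. It had 131, 137 and 128 at 30 h and 36.8, 41.0 and 39.9 at 72 h (log2 fold change -1.72 ± 0.14 SE, adjusted p = 1.01e-05). NEXN fell by 1.53. In each of these 3 members the values of 72 h all lay below those of 30 h.

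SLC8A1-AS1, named after the plasma membrane sodium and calcium exchanger, was scarce, with 12.7, 21.3 and 11.6 at 30 h and 5.11, 2.62 and 2.10 at 72 h (log2 fold change -1.94 ± 0.41 SE, adjusted p = 0.00342; limma, Benjamini-Hochberg). SLC8A1 fell as well, by 2.97 on the log2 scale. Since 24.1% of the exonic length of SLC8A1-AS1 is also exon of SLC8A1, and nothing in the sources used here gives the strand setting of the counting, reads of the pair may not be separable. At the mean level of SLC8A1 per base, those 2040 shared bases would hold 19.6 normalised counts, and SLC8A1-AS1 had a mean of 9.24. How far reads of partners enter the values of members was not tested.

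The same measure is given for VIM-AS1 and ACTA2-AS1, named after cytoskeletal genes. VIM-AS1 shares 641 bases, 32.2% of its exonic length, with exons of VIM, the gene of the intermediate filament protein vimentin. VIM-AS1 had 563, 405 and 353 at 30 h and 188, 199 and 172 at 72 h and fell 2.32-fold (log2 fold change -1.21 ± 0.16 SE, adjusted p = 0.000394; limma, Benjamini-Hochberg), while VIM had 104828, 101367 and 82705 at 30 h and 39022, 43676 and 37329.5 at 72 h (log2 fold change -1.26 ± 0.10 SE, adjusted p = 1.23e-05). The shared bases would hold 8470 normalised counts at the mean level of VIM, and the mean of VIM-AS1 was 313. ACTA2-AS1, in the gene of smooth muscle actin, had 27.3, 18.3 and 15.8 at 30 h and 4.09, 14.0 and 8.39 at 72 h (log2 fold change -1.23 ± 0.41 SE, adjusted p = 0.0326), and ACTA2 ranged between 1504 and 1638 normalised counts at 30 h and between 169 and 245 at 72 h, a fall of 2.98 on the log2 scale. ACTA2-AS1 shares 516 bases, 16.2% of its exonic length, with ACTA2, which would hold 155 normalised counts at the mean level of ACTA2, and the mean of ACTA2-AS1 was 14.6. The call of ACTA2-AS1 was lost without library 30 h A (adjusted p = 0.122), 30 h B (adjusted p = 0.0697), 72 h A (adjusted p = 0.106) and 72 h C (adjusted p = 0.0529). Its groups did not overlap, but library B of 72 h, at 14.0, came close to the lowest value of 30 h.

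TMPO-AS1 is named after the lamina-associated protein thymopoietin and had 62.4, 74.2 and 60.1 at 30 h and 27.6, 26.2 and 25.2 at 72 h (log2 fold change -1.28 ± 0.18 SE, adjusted p = 0.00027; limma, Benjamini-Hochberg), with a fall of 0.82 on the log2 scale in TMPO. FAM13A-AS1 had 24.4, 20.3 and 38.0 at 30 h and 11.2, 11.3 and 8.39 at 72 h (log2 fold change -1.30 ± 0.30 SE, adjusted p = 0.00533). FAM13A, with which it shares exon bases, fell by 0.90. ADD3-AS1 was the one of the 10 largest falls whose partner did not pass the test. It had 15.6, 19.3 and 17.9 at 30 h and 6.13, 8.72 and 5.25 at 72 h (log2 fold change -1.29 ± 0.31 SE, adjusted p = 0.00617), and ADD3, which encodes the membrane skeleton protein adducin 3, had 3572, 3866 and 5041 at 30 h and 3691, 3209.6 and 4436 at 72 h (log2 fold change -0.14 ± 0.17 SE, adjusted p = 0.552). The values of ADD3 overlapped between the times, and those of TMPO-AS1 and FAM13A-AS1 did not. Those of ADD3-AS1 lay apart too, but the rule required this, since ADD3-AS1 was let in through 30 h alone. Whether ADD3-AS1 and ADD3 differed in their change was not tested.

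**Figure D2:**
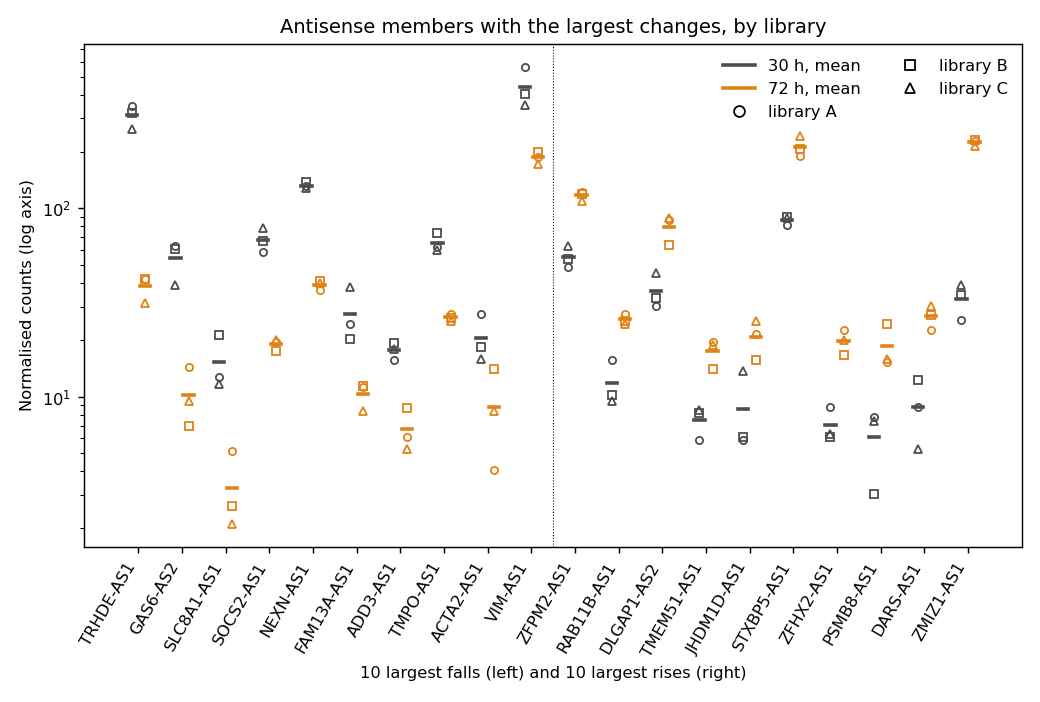
Normalised counts (log axis) of the 10 antisense members with the largest falls and the 10 with the largest rises, for each library of 30 h (grey) and 72 h (orange), with bars for the group means and a symbol for each replicate letter. In none of these 20 members do the 3 values of one time overlap those of the other. For PSMB8-AS1, ZFHX2-AS1, TMEM51-AS1, SLC8A1-AS1 and ADD3-AS1, let in through a single time alone, the rule itself required this. TRHDE-AS1 is at the left end and ZMIZ1-AS1, from 25.3 to 39.0 at 30 h to 215 to 230 at 72 h, at the right.

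Among the 10 largest rises, 2 began from a higher level than the others. STXBP5-AS1 (ENSG00000233452, chr6:146841901-147204614, minus strand) starts 7 bases from STXBP5, the gene of tomosyn, a regulator of vesicle fusion. It had 81.9, 89.4 and 88.6 at 30 h and 189, 207 and 241 at 72 h (log2 fold change 1.28 ± 0.12 SE, adjusted p = 3.34e-05; limma, Benjamini-Hochberg). STXBP5 moved the other way, with 884, 822 and 822 at 30 h and 623, 624 and 629 at 72 h (log2 fold change -0.43 ± 0.06 SE, adjusted p = 0.000314). Neither gene's groups overlapped, and 3.16% of the exonic length of STXBP5-AS1 is exon of STXBP5. The promoter window of STXBP5-AS1 (chr6:147204565-147204864, minus strand, GRCh38.p14, RefSeq) is shown because its starts are the closest among the pairs with opposite calls, with 2 CCAAT matches in capitals, the first read on the other strand:
STXBP5-AS1: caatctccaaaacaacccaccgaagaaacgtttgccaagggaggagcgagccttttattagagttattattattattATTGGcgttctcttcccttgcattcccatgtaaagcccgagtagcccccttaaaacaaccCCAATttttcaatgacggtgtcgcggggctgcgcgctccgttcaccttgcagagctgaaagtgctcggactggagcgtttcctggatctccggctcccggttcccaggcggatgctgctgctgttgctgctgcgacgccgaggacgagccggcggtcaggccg

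ZFPM2-AS1 was the other one, with 48.7, 53.8 and 63.3 at 30 h and 123, 119 and 109 at 72 h (log2 fold change 1.07 ± 0.15 SE, adjusted p = 0.00028; limma, Benjamini-Hochberg). Its partner ZFPM2, a cofactor of GATA transcription factors, had 216, 236 and 249 at 30 h and 23.5, 22.7 and 25.2 at 72 h and fell (log2 fold change -3.24 ± 0.14 SE, adjusted p = 2.34e-07). ZFPM2-AS1 lies across ZFPM2 on the other strand and shares no exon base with any gene there, and the closest starts of the pair are 107519 bases apart. All values of the member rose above its earlier range while all values of the partner fell below its own.

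Pairs with opposite calls were few. Beside STXBP5 and ZFPM2 they were SLC16A1-AS1 and NUP50-AS1. SLC16A1-AS1, which starts 62 bases from the gene of the lactate transporter MCT1, had 129, 104 and 124 at 30 h and 78.7, 74.1 and 54.5 at 72 h (log2 fold change -0.79 ± 0.17 SE, adjusted p = 0.00394; limma, Benjamini-Hochberg). SLC16A1 rose, with 1362, 1528 and 1377 at 30 h and 1869, 1947 and 1899.6 at 72 h (log2 fold change 0.42 ± 0.06 SE, adjusted p = 0.000314). NUP50-AS1, 60 bases from a nuclear pore gene, had 67.3, 77.2 and 89.6 at 30 h and 106, 133 and 109 at 72 h (log2 fold change 0.57 ± 0.15 SE, adjusted p = 0.0125), and NUP50 fell by 0.23 on the log2 scale. The call of NUP50-AS1 was lost without library 30 h A (adjusted p = 0.0516) and 72 h B (adjusted p = 0.0524). Whether member and partner differed in their change was not tested in any pair.

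Of the 46 called members whose partner passed the filter, 31 had a partner called in the same direction, 4 in the opposite one, and 11 a partner that did not pass. In the same-direction pairs 13 rose and 18 fell. In reverse, 52 members that did not pass the test had a called partner, 22 of them a higher and 30 a lower one. The 167 partners past the filter, all protein-coding, had 36 rises, 51 falls and 80 that did not pass, so 52.1% were called, against 48.6% of all genes. Across the 168 pairs the log2 fold changes of member and partner had a Pearson r of 0.50 and a Spearman rho of 0.41, and 114 pairs had the same sign. The points share the same 6 libraries and in many pairs exon bases. In the 53 pairs without shared exon bases r was 0.24 and rho 0.42, with the same sign in 40. In the 92 pairs whose closest starts lie within 1000 bases and point away from each other, r was 0.59 and rho 0.41. In the 68 others that share exon bases r was 0.60 and rho 0.41. In the 7 that overlap without shared exon bases, ZFPM2-AS1 among them, r was -0.16 and rho 0.29. Differences between these sets were not tested.

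**Figure D3:**
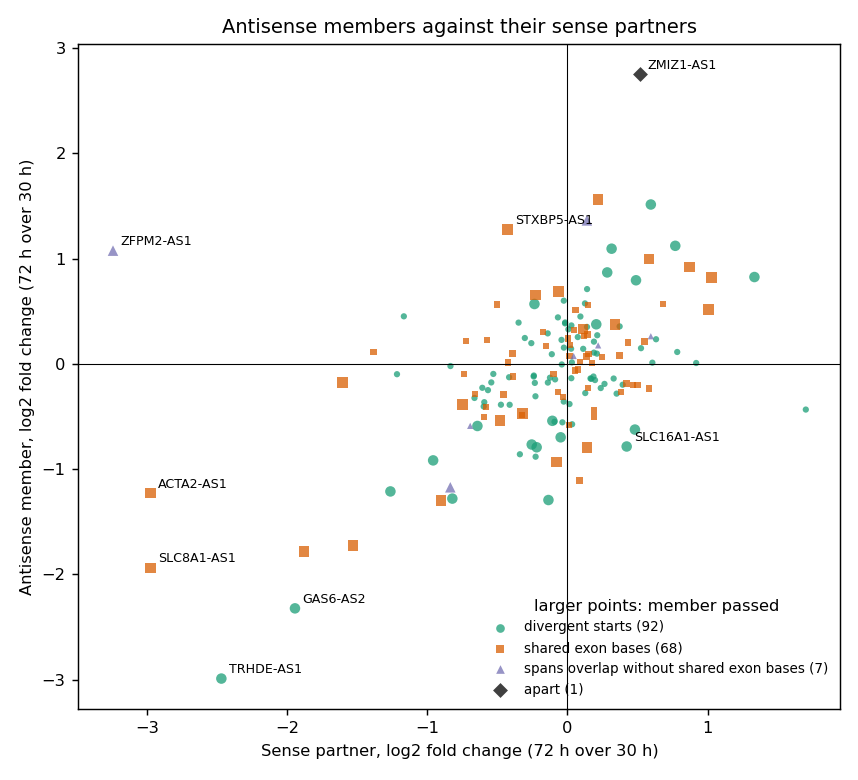
Log2 fold change (72 h over 30 h) of each antisense member (y axis) against that of its sense partner (x axis) for the 168 pairs in which both passed the filter; colour and shape give the arrangement of the pair, and larger points mark members that passed the test. SLC8A1-AS1, GAS6-AS2 and TRHDE-AS1 lie at the lower left with their partners, and ZFPM2-AS1 (1.07 against -3.24) at the upper left.

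The other large rises were of members with low counts. DLGAP1-AS2, within the gene of a synaptic scaffold protein that was at 0 to 3.49 in these cells, had 30.2, 33.5 and 45.3 at 30 h and 86.9, 63.7 and 89.2 at 72 h (log2 fold change 1.12 ± 0.21 SE, adjusted p = 0.00169; limma, Benjamini-Hochberg). It shares no exon base with another gene on the other strand. RAB11B-AS1, beside the gene of a small GTPase of endosome recycling, had 15.6, 10.2 and 9.49 at 30 h and 27.6, 25.3 and 24.1 at 72 h (log2 fold change 1.09 ± 0.27 SE, adjusted p = 0.00743), and RAB11B rose by 0.32. DARS-AS1 is named after the aspartyl-tRNA synthetase gene and had 8.77, 12.2 and 5.27 at 30 h and 22.5, 27.0 and 30.4 at 72 h (log2 fold change 1.56 ± 0.32 SE, adjusted p = 0.00312), with a rise of 0.22 in DARS. In all 3 members the groups lay apart. Few members' promoter windows held the AP-1 motif TGANTCA, a sequence bound by factors downstream of RAS signalling. That of SVIL-AS1, which fell, has 1 match. Whether the motif goes with a direction of change was not tested. The promoter window of DLGAP1-AS2 (chr18:3603487-3603786, plus strand, GRCh38.p14, RefSeq) is shown as one of these few, with its 2 matches in capitals:
DLGAP1-AS2: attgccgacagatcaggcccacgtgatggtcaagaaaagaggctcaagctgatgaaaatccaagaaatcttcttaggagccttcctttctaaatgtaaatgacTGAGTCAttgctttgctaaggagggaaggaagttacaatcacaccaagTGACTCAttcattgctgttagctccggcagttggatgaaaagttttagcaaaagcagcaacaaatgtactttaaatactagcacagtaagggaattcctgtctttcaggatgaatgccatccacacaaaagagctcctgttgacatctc

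PSMB8-AS1 lies beside PSMB8, a subunit of the immunoproteasome, and had 7.80, 3.05 and 7.38 at 30 h and 15.3, 24.4 and 15.7 at 72 h (log2 fold change 1.51 ± 0.39 SE, adjusted p = 0.00929; limma, Benjamini-Hochberg). PSMB8 rose too, with 276, 271 and 231 at 30 h and 420.0, 427 and 334 at 72 h (log2 fold change 0.60 ± 0.12 SE, adjusted p = 0.00212), and 55.0% of the exonic length of PSMB8-AS1 is exon of PSMB8 or TAP1. ZFHX2-AS1 had 8.77, 6.10 and 6.33 at 30 h and 22.5, 16.6 and 19.9 at 72 h (log2 fold change 1.36 ± 0.29 SE, adjusted p = 0.00376), while the homeobox gene ZFHX2 did not pass (0.14, adjusted p = 0.492). TMEM51-AS1 had 5.85, 8.13 and 8.44 at 30 h and 19.4, 14.0 and 18.9 at 72 h (log2 fold change 1.12 ± 0.30 SE, adjusted p = 0.0116), with a rise of 0.77 in TMEM51. Its exons overlap those of KAZN or TMEM51 on the other strand over 47.1% of their length. JHDM1D-AS1, for which the table holds no row under the name JHDM1D, had 5.85, 6.10 and 13.7 at 30 h and 21.5, 15.7 and 25.2 at 72 h (log2 fold change 1.26 ± 0.37 SE, adjusted p = 0.0171). Its call was lost without library 30 h A (adjusted p = 0.0605), 30 h B (adjusted p = 0.0613), 72 h A (adjusted p = 0.0589) and 72 h C (adjusted p = 0.0531). The groups of these 4 members did not overlap. For PSMB8-AS1, ZFHX2-AS1 and TMEM51-AS1, let in through 72 h alone, the rule itself required this. Library C of JHDM1D-AS1 at 30 h, at 13.7, came near to library B of 72 h, at 15.7.

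Outside the 20 largest changes, 17 members rose by 0.33 to 1.00 and 19 fell by 0.18 to 1.17 on the log2 scale. Of all 56 called members, 38 were called again when any single library was left out, and 18 were not in at least 1 of the 6 cases. Groups lay apart in 27 of the 27 members that rose and in 28 of the 29 that fell, the exception being HOXB-AS3. For 4 of those that rose and 3 of those that fell, let in through a single time alone, the rule itself required this. The share among all called genes was not taken. Over all tested genes, called or not, 29.3% lay apart upward and 29.9% downward.

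The 8 most abundant members had standard errors of 0.06 to 0.11 and changes under 2-fold. LRRC75A-AS1, a host of small nucleolar RNAs (SNORD49A, SNORD49B and SNORD65 lie in its exons on the same strand), had 4469.5, 4329 and 4028 at 30 h and 4631, 4638 and 4444 at 72 h. It did not pass the test (log2 fold change 0.10 ± 0.06 SE, adjusted p = 0.176; limma, Benjamini-Hochberg). With 1177 normalised counts per kilobase of exon it was the most abundant member per length, far above its partner LRRC75A at 3.12. FGD5-AS1 had 1815, 1731 and 1716 at 30 h and 1335, 1281 and 1417 at 72 h and fell (log2 fold change -0.38 ± 0.06 SE, adjusted p = 0.000458). FGD5, an exchange factor known from endothelium, was at 0 reads in all 6 libraries. OIP5-AS1, also known as Cyrano and as a binder of miR-7, had 1057, 1132 and 1089 at 30 h and 1021, 968 and 909 at 72 h (log2 fold change -0.18 ± 0.06 SE, adjusted p = 0.0383). This call was lost without library 30 h A (adjusted p = 0.0583), 30 h B (adjusted p = 0.137), 30 h C (adjusted p = 0.0566), 72 h B (adjusted p = 0.0789) and 72 h C (adjusted p = 0.109). Its partner OIP5, a factor of centromere assembly, ranged between 66.4 and 97.5 normalised counts at 30 h and between 16.4 and 48.8 at 72 h, a fall of 1.60 on the log2 scale (adjusted p = 0.00858). Without both libraries of letter C, OIP5 did not pass (-1.66, adjusted p = 0.0737).

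Among the other abundant members, MAGI2-AS3 had 1003, 1042 and 933 at 30 h and 719, 617 and 717 at 72 h (log2 fold change -0.54 ± 0.08 SE, adjusted p = 0.000361; limma, Benjamini-Hochberg), and the scaffold gene MAGI2 fell by 0.48. SVIL-AS1, which GENCODE classes as a transcribed pseudogene, had 676, 687 and 639 at 30 h and 389, 417 and 347 at 72 h (log2 fold change -0.80 ± 0.08 SE, adjusted p = 4.47e-05). SVIL, which encodes the actin-binding protein supervillin, did not pass the test (0.14, adjusted p = 0.443). OTUD6B-AS1 starts 7 bases from the deubiquitinase gene OTUD6B and shares no exon with it. It had 403, 466 and 442 at 30 h and 246, 255 and 266 at 72 h (log2 fold change -0.77 ± 0.08 SE, adjusted p = 7.13e-05), and OTUD6B fell by 0.25, a call lost without library 30 h A (adjusted p = 0.115), 30 h B (adjusted p = 0.116), 72 h A (adjusted p = 0.0744) and 72 h C (adjusted p = 0.0907). MMP24-AS1, which GENCODE 29 lists as protein-coding, was the only one of these 8 that rose, with 562, 574 and 552 at 30 h and 754, 814 and 789 at 72 h (log2 fold change 0.48 ± 0.06 SE, adjusted p = 0.000181). MMP24, a membrane-bound metalloproteinase gene, was at 4.22 to 11.5. The times lay apart in each of these 4 members.

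In the list of developmental transcription factors stood 9 members, of which 1 rose and 4 fell, with a median log2 fold change of -0.39. The list is not complete, and ZFHX2-AS1 and ZFPM2-AS1, which rose, do not stand in it. These counts and those below are to be read beside the median of 0.01 and the 48.6% called over all tested genes. NR2F2-AS1 had 48.7, 50.8 and 31.6 at 30 h and 22.5, 16.6 and 16.8 at 72 h (log2 fold change -1.17 ± 0.25 SE, adjusted p = 0.00356; limma, Benjamini-Hochberg), and the nuclear receptor gene NR2F2 fell by 0.84. TBX5-AS1 (chr12:114408191-114412831, plus strand) had 493, 444 and 603 at 30 h and 372, 391 and 405 at 72 h (log2 fold change -0.39 ± 0.11 SE, adjusted p = 0.0136), a call lost without library 72 h A (adjusted p = 0.0578). TBX5, a T-box factor of heart, limb and lung development, fell by 0.75. HOXB-AS3 had 94.6, 122 and 63.3 at 30 h and 51.1, 71.5 and 42.0 at 72 h, with overlapping groups (log2 fold change -0.74 ± 0.27 SE, adjusted p = 0.0483), and its call was lost without library 30 h A (adjusted p = 0.124), 30 h B (adjusted p = 0.16), 72 h A (adjusted p = 0.134) and 72 h C (adjusted p = 0.132). HOXB-AS1 had 20.5, 30.5 and 27.4 at 30 h and 13.3, 16.6 and 19.9 at 72 h and did not pass (log2 fold change -0.62 ± 0.26 SE, adjusted p = 0.0728). TBX2-AS1 fell by 0.59 (adjusted p = 0.0293), and its call was lost without library 30 h A, 30 h B, 30 h C, 72 h B or 72 h C (adjusted p up to 0.0887). PAX8-AS1 rose by 0.52 (adjusted p = 0.000758), with a rise of 1.01 in PAX8.

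The windows of TBX5-AS1 and TBX5 are nearly the same stretch read from both strands, which is why that of TBX5-AS1 is printed (chr12:114407945-114408244, plus strand, GRCh38.p14, RefSeq). Its capitals mark the 282 of 300 bases that also lie in the window of TBX5:
TBX5-AS1: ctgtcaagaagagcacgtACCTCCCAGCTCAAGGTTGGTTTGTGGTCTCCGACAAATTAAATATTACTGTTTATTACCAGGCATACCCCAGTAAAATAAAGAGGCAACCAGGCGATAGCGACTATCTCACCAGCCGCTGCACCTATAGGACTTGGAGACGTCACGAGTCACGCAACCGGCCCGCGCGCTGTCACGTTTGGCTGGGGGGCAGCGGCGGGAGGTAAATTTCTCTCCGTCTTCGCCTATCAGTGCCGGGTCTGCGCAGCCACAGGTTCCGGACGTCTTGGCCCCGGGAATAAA

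In the developmental list, 3 members had a called partner but did not pass themselves. NR2F1-AS1 had 315, 308 and 311 at 30 h and 340.3, 330.5 and 421 at 72 h, with the later values all slightly higher (log2 fold change 0.22 ± 0.10 SE, adjusted p = 0.101; limma, Benjamini-Hochberg). NR2F1, also a nuclear receptor, fell by 0.72, a call lost without library 30 h A (adjusted p = 0.0509) and 30 h C (adjusted p = 0.0713). ZEB1-AS1 had 49.7, 64.0 and 68.5 at 30 h and 59.3, 40.1 and 46.2 at 72 h (log2 fold change -0.32 ± 0.20 SE, adjusted p = 0.211), while ZEB1, a factor of the mesenchymal state, fell by 0.66. GATA2-AS1 had a log2 fold change of 0.39 (adjusted p = 0.312), and GATA2 was called lower by 0.35 (adjusted p = 0.0486). That call of GATA2 was lost without library 30 h A, 30 h B, 30 h C, 72 h A or 72 h C (adjusted p up to 0.141), by edgeR and DESeq2 and in the authors' deposited table (adjusted p = 0.155). The values of ZEB1-AS1 overlapped between the times.

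In the list of matrix, adhesion and cytoskeleton genes, none of 13 members rose and 4 fell (VIM-AS1, ACTA2-AS1, PXN-AS1 and LOXL1-AS1), with a median of -0.20. The list is not complete. NEXN-AS1, ADD3-AS1 and SVIL-AS1, which also fell, and MMP24-AS1, which rose, do not stand in it. LOXL1-AS1, beside the gene of an enzyme that crosslinks elastin, had 124, 109 and 78.0 at 30 h and 54.2, 51.4 and 54.5 at 72 h (log2 fold change -0.92 ± 0.18 SE, adjusted p = 0.0024; limma, Benjamini-Hochberg), and LOXL1 fell by 0.96. PXN-AS1 fell by 0.93 (adjusted p = 0.00617), while the focal adhesion gene PXN did not pass (-0.08). HAS2-AS1 had 32.2, 27.4 and 19.0 at 30 h and 21.5, 25.3 and 18.9 at 72 h, with overlapping groups (log2 fold change -0.23 ± 0.26 SE, adjusted p = 0.498). HAS2, the hyaluronan synthase gene, ranged between 3626 and 5633 at 30 h and between 2900 and 3772 at 72 h and did not pass (-0.61, adjusted p = 0.0592).

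Of 5 members named after genes of the cell cycle and genome maintenance none rose and 2 fell, TMPO-AS1 and OIP5-AS1, and the list had a median of -0.86. Of 7 members named after cytokine and immune genes, PSMB8-AS1 alone rose and none fell (median -0.36). TRAF3IP2-AS1 had a log2 fold change of -0.43 (limma, Benjamini-Hochberg adjusted p = 0.328), whereas its partner TRAF3IP2, an adaptor of interleukin-17 signalling, rose by 1.70.

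Among 6 members named after RAS, MAP kinase and growth factor genes, RASSF8-AS1 rose, and GAS6-AS2 and FGD5-AS1 fell (median -0.19). RASSF8-AS1 rose by 0.37 (limma, Benjamini-Hochberg adjusted p = 0.039), a call lost without library 30 h A, 72 h A, 72 h B or 72 h C (adjusted p up to 0.145). MAPKAPK5-AS1, beside a kinase gene linked to RAS-induced senescence, had 102, 99.6 and 108 at 30 h and 96.1, 103 and 82.9 at 72 h and did not pass (log2 fold change -0.14 ± 0.13 SE, adjusted p = 0.418). MAPKAPK5 did not pass either (0.16, adjusted p = 0.0591).

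In the list of metabolic, ribosomal and mitochondrial genes, which also takes in transmembrane (TMEM) names and the transposase-derived gene THAP9, 2 of 15 members rose (ATP2B1-AS1 and TMEM51-AS1) and 4 fell (SLC8A1-AS1, SLC16A1-AS1, THAP9-AS1 and EIF3J-AS1), with a median of -0.38. ATP2B1-AS1 rose by 0.82 (limma, Benjamini-Hochberg adjusted p = 0.00324), and ATP2B1, a calcium pump of the plasma membrane, rose by 1.33. THAP9-AS1 had 393, 397 and 339.6 at 30 h and 234, 242 and 254 at 72 h (log2 fold change -0.62 ± 0.09 SE, adjusted p = 0.000373), while THAP9 did not pass (0.48, adjusted p = 0.143). NNT-AS1 had 262, 208 and 249 at 30 h and 222, 215 and 233 at 72 h, with overlapping groups (log2 fold change -0.10 ± 0.11 SE, adjusted p = 0.49), and NNT, a mitochondrial source of NADPH, fell by 0.53. EIF3J-AS1 fell by 0.54 (adjusted p = 0.0468), a call lost without each of the 6 libraries in turn (adjusted p up to 0.149). The remaining 141 members stand in none of the 6 lists, and 22 of them rose and 13 fell (median 0.09).

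By arrangement in GENCODE 29, all 193 pairs with a partner row lie on opposite strands. The starts compared are the closest of all annotated transcripts of a pair, and may differ from the RefSeq starts of the promoter windows. In 95 the closest starts are within 1000 bases and point away from each other, though other transcripts of 50 of these pairs share exon bases. Of these 95 members 8 rose and 13 fell (22.1% called, median -0.12). Another 86 share exon bases with the partner without such starts, and 13 rose and 14 fell (31.4% called, median 0.06). In 34 of these 86 the closest starts also lie within 1000 bases but do not point away from each other. In 11 the genes overlap without shared exon bases, and 4 rose (DLGAP1-AS1, DLGAP1-AS2, ZFHX2-AS1 and ZFPM2-AS1) and 1 fell (NR2F2-AS1). ZMIZ1-AS1 is in none of these classes, since its gene does not overlap ZMIZ1 and the closest starts are more than 1000 bases apart. The call of DLGAP1-AS1 was lost without library 30 h A, 30 h C, 72 h A, 72 h B or 72 h C (adjusted p up to 0.116). For HOXB-AS1, HOXB-AS3 and JHDM1D-AS1 no row carries exactly the name before -AS, and no other name was substituted. The differences between these classes were not tested.

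Over all genes, 154 members share exon bases with a gene on the other strand, for a median of 8.13% of the members' exonic length. At least 50% was shared by 10 members, and 9 of them did not pass the test, PSMB8-AS1 being the exception. The 42 members with no such bases had 7 rises and 5 falls, among them ZMIZ1-AS1, ZFPM2-AS1 and GAS6-AS2. In 53 of the 115 tested pairs that share exon bases, the member's mean lay below the amount that its partner's mean level would place on the shared bases. In the other 62 it was at or above it.

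Per kilobase of exon the partner was more abundant than the member in 151 of the 168 pairs whose partner passed the filter. The median ratio in these 168 was 8.78. VIM at 13213 and VIM-AS1 at 157 normalised counts per kilobase were an extreme of this kind. In the 17 other pairs the member was the more abundant one. Examples are LRRC75A-AS1, THAP9-AS1 (70.5 against 11.04 for THAP9), OIP5-AS1 (81.2 against 45.7 for OIP5) and MAGI2-AS3 (72.2 against 6.01 for MAGI2). Over all 193 pairs with a partner row, 25 of them with a partner below the filter, the member exceeded the partner in 42.

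**Figure D4:**
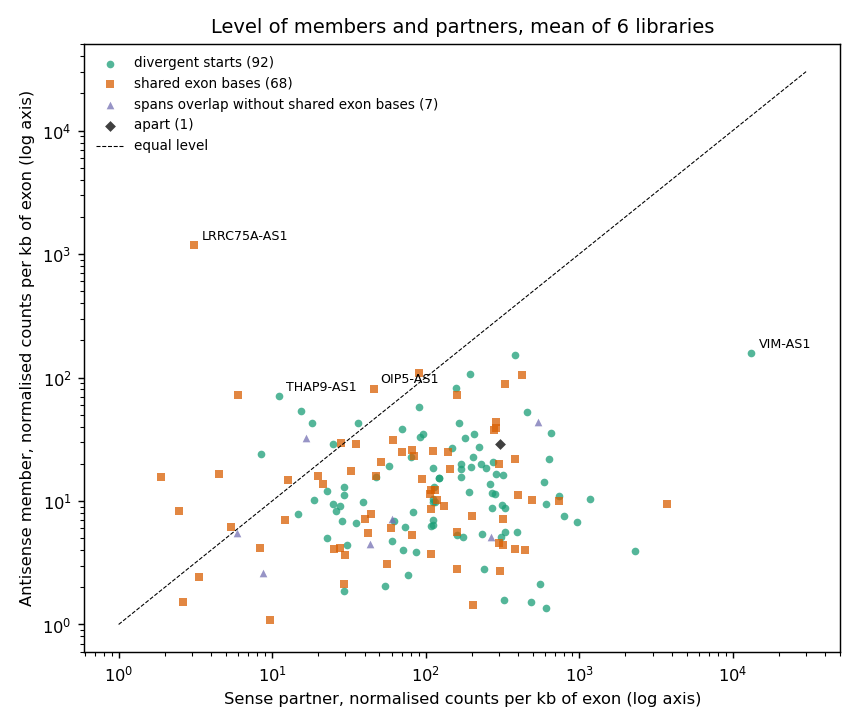
Mean level over the 6 libraries in normalised counts per kilobase of exon of each antisense member (y axis, log) against its sense partner (x axis, log) for the 168 pairs in which both passed the filter, with colour and shape for the arrangement and a dashed line at equal levels. Points below the line, 151 of 168, have a partner above the member; LRRC75A-AS1 (1177 against 3.12) lies far above it.

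RefSeq promoter windows were found for 127 of the 196 members. Their median GC content was 63.7%, against 58.3% in all 27305 windows of the table, and they held a median of 23 CpG, against 14. The GC box GGGCGG stood in 55.1% of the members' windows and 44.6% of all windows, the ETS motif CCGGAAG in 16.5% and 10.7%, and CCAAT in 37.0% and 35.7%. The TATA box TATAAA stood in 5.51% of them, against 11.95%, and the AP-1 motif in 4 of 127 windows (3.15%), against 7.76%. Both strands were searched, no motif contains another, and a match is only a string of letters. The E2F motif (TTT, then C or G, then GCGC) was found in none of the 127 windows and in 1.2% of all. The kappaB motif (GGG, any 2 letters, TTTCC) stood in 3.94% and 1.92%, and the NRF1 motif (GCGCA followed by TGCGC) in 2.36% and 1.36%. The windows of 140 partners past the filter had medians of 67.3% GC and 28.5 CpG. The GC box stood in 72.9% of the partners' windows, the ETS motif in 18.6% and CCAAT in 27.9%. TATA box and AP-1 motif stood in 5.71% each, and E2F, kappaB and NRF1 motifs in 1.43% each. Differences between members and partners were not tested. In 111 pairs both windows were present, and in 17 of these they share bases.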

How the data were processed

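RNA of 6 libraries was compared, 3 after 30 h and 3 after 72 h of 4OHT. Per the labels' protocols, the KAPA mRNA HyperPrep kit was used for the libraries. Per the submitters' processing notes the tools were Trimmomatic 0.35, STAR 2.5.1b and DESeq2 1.18.1, with GRCh38. The counter, its annotation and its use of strand were not given in the sources at hand. Signal values, as deposited, are read counts over the authors' size factor of each library, and 100% were whole multiples, within 0.01, of 1 read's worth. Per the file headers, the authors' own comparison is in the deposited table as a log2 fold change, a score (the Wald statistic), a p-value and an adjusted p-value, used only as an alternative. The number of columns of other samples was 0.

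Genes at 10 or more in 3 or more libraries (13315) were compared on log2(value + 1) by limma 3.58.1 with its trend and robust settings (R 4.3.3), and Benjamini-Hochberg adjusted p-values under 0.05 were called. Folds and standard errors are those of that fit. Alternatives were other pseudocounts and filters, quantile normalisation, limma without its options, edgeR 4.0.16 on the recovered reads, DESeq2 1.42.0, the authors' table, a block for the replicate letter, and each library left out. Leaving out both libraries of letter C was added after seeing the data. Reads may include PCR duplicates.

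The letters were not used as pairs, since the labels do not state that they pair cultures. After removal of the group means, libraries of the same letter correlated at 0.00696 (A), 0.172 (B) and 0.185 (C). Exon overlaps, strands, gene types and lengths came from GENCODE 29, in which 184 of the 196 members have the coordinates of the table (not so ZFPM2-AS1, JHDM1D-AS1, TMEM51-AS1 and HAS2-AS1 among those named). The members and the lists of partner roles were chosen with earlier results of these data known. Members are named if they were among the 10 largest rises or falls, the 8 most abundant, the pairs with opposite calls or the largest shared changes, or on a list of names. Others were named because a count was small, or as examples within a list, after their values were seen.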

Additional observations from a re-analysis of the deposited data

How the results depend on the processing

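With a block for the replicate letter, 27 members rose and 30 fell, and 53 of these 57 calls were among the 56 of the fit without it. By the correlation of their deviations, 4 of the 6 libraries were closest to the library of their own letter, a hint from the data and not from the design. Leaving out each library in turn gave 20 to 25 rises and 24 to 29 falls among the members, 29 to 38 and 43 to 49 among the partners, and 2529 to 3174 and 2689 to 3295 over all tested genes. Without both libraries of letter C, 26 members rose and 33 fell. A filter at a mean of at least 50, which leaves 72 members, gave 14 rises and 15 falls. DESeq2 run again on the recovered reads gave 19 and 24, the authors' deposited comparison 18 and 24, and edgeR 27 and 29. Of the 56 calls, 37 were made under every alternative run (15 rises and 22 falls).

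Among the named genes the sign turned for ADD3 without library 30 h C (0.0115, with -0.2571 as the lowest value when single libraries were left out) and for ZFHX2 without library 72 h B (-0.0072, with 0.2351 as the highest), and neither was called under any alternative. TMEM51-AS1 was not called by DESeq2 (adjusted p = 0.0616) or in the authors' table (0.0829), nor was ACTA2-AS1 (0.0688 and 0.0966) or OIP5-AS1 (0.112 and 0.122). JHDM1D-AS1 was not called in the authors' table (0.0617). HOXB-AS3 was not called with quantile normalisation (0.0586) or with a mean of at least 50 (0.0502). LRRC75A-AS1 was called higher with quantile normalisation (0.20, adjusted p = 0.0158). HAS2 was called lower by edgeR (-0.63), by DESeq2 (-0.62), in the authors' table (-0.63), with a mean of at least 50 (-0.61), without library 30 h C (-0.82) and without letter C (-0.94), and in the last case SVIL (0.32) and THAP9 (0.68) were called higher. OTUD6B was not called by DESeq2 (0.0859), in the authors' comparison (0.103) or with quantile normalisation (0.0512). The causes were not tested. Members that did not pass had log2 changes between -1.11 and 0.71.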

Other observations

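Names of a related kind, with -IT (intronic), -OT (overlapping) or -AS without a number, were outside the rule, and 13 of them passed the same filter. SPRY4-IT1, from the gene of a feedback inhibitor of RAS signalling, was at 40.9, 48.8 and 50.6 normalised counts at 30 h and at 25.5, 16.6 and 31.5 at 72 h, and fell (log2 fold change -0.94 ± 0.25 SE, limma with Benjamini-Hochberg, adjusted p = 0.0112). PCBP3-OT1 was scarce, at 6.82, 2.03 and 7.38 and then 15.3, 13.1 and 11.5, and was called higher (1.29 ± 0.44, adjusted p = 0.0337). It passed the filter through the values of 72 h alone, so its selection favoured a difference, and the call was lost by DESeq2, in the authors' table (adjusted p = 0.135) and without library 30 h B, 72 h A or 72 h B (adjusted p up to 0.109). ANKRD10-IT1 was at 70.2, 64.0 and 81.2 and then 94.0, 94.2 and 94.4 and was called higher (0.39 ± 0.14, adjusted p = 0.0411). That call was lost by DESeq2, in the authors' table (adjusted p = 0.171), with no filter, and without library 30 h A, 30 h B, 72 h A, 72 h B or 72 h C (adjusted p up to 0.141). CDR1-AS, whose circular form these values do not separate, was at 171, 208 and 153 and then 242, 130 and 250 (0.18 ± 0.27), with overlapping groups, and neither it nor the 9 remaining names passed the test.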
